A study of Mus musculus with 12 samples.

Results

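Of 54429 rows in the gene count table, 39 belong to the presynaptic machinery of vesicle release, the proteins that dock, prime, fuse and retrieve synaptic vesicles. The members were taken by gene symbol from a list of that machinery. All 39 were found, all passed the filter on low counts in every comparison, and the lowest count of any member in any library was 88. They comprise 11 vesicle phosphoproteins and membrane proteins, 7 SNARE proteins and complexins, 5 synaptotagmins, 10 active zone and priming proteins, Rab3a with its effector Rph3a, the endocytic proteins Dnm1 and Amph, and the adhesion proteins Nrxn2 and Nrxn3.

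RNA was sequenced in 12 libraries from brain punches of C57BL/6 mice, in 4 groups of 3. The labels name the regions BLA and VTA, and give the housing as early social isolated or group housed. Per the design text the BLA groups are male, isolated or group housed, and the VTA groups are female, isolated or group housed. Region and sex therefore cannot be told apart in any contrast of VTA with BLA. The labels give no age, no length of isolation and no statement on pooling or on separate animals, so the p-values rest on variation among these libraries alone, which may be technical.

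At a nerve terminal, vesicles carrying synaptobrevin dock at the active zone, a protein lattice built on RIM, Bassoon, Piccolo and ERC proteins. Munc13 proteins prime them, complexins clamp the partly assembled SNARE complex of synaptobrevin, syntaxin and SNAP-25, and calcium binding to synaptotagmin triggers fusion. Dynamin and amphiphysin then retrieve the membrane. Most of these proteins come in families whose members are used to different degrees by different neurons, so the mix of paralogs varies between brain regions.

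Total counts per library ranged from 28278708 to 69276892, and the 39 members took 0.904% to 1.58% of them. Levels below are CPM, which are counts relative to library size after TMM scaling over all 12 libraries. Markers separated the labelled regions. Summed markers of midbrain dopamine neurons lay at 1014 to 2114 CPM in VTA and 101 to 139 CPM in BLA, and those of cortical and amygdalar glutamatergic neurons at 1941 to 3691 CPM in BLA and 272 to 1127 CPM in VTA. Some libraries stood apart. Isolated VTA library 3 held the most choroid plexus markers (3559.9 CPM) and cortical markers (1127 CPM) of the VTA libraries, isolated VTA library 1 was second in both, and isolated BLA library 1 held the most striatal markers. In 3 BLA libraries, isolated library 3 and group-housed libraries 1 and 2, loci that collect ribosomal RNA reads took 18.6%, 28.6% and 41.8% of counts, against at most 1.57% elsewhere.

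Transcripts of the release machinery were mostly lower in the VTA libraries than in the BLA libraries, with a few paralogs running the other way. Only RNA in the punches was measured, and protein at nerve terminals was not. Names of proteins below stand for their transcripts. By the quasi-likelihood test of edgeR, at a Benjamini-Hochberg adjusted p under 0.05 over all genes tested, 28 of 39 members were lower in VTA, 5 were higher and 6 did not pass. Over all 25009 genes tested 47.7% were called, 23.7% lower and 24.1% higher. The members' median log2 fold change, VTA relative to BLA, was -0.94, against 0.02 for all genes and -0.05 for 20 pan-neuronal markers, of which 7 were called lower and 4 higher. In bulk tissue, fewer neurons that express a gene and less RNA per neuron cannot be told apart. Of the 39, 21 had every VTA library below every BLA library and 3 had every VTA library above, against 12.9% and 14.1% of all genes, or 27.1% in either direction. Markers of other cells also differed between the regions: 14 of 15 cortical and amygdalar glutamatergic markers and 9 of 11 GABAergic markers were called lower in VTA, and 11 of 11 oligodendrocyte markers higher. Their part in the members' values was not tested. Without the 3 BLA libraries rich in ribosomal RNA reads, 28 members were called, among 9273 of 27837 genes, and without isolated VTA libraries 1 and 3, 31 were called, among 10698 of 27440 genes.

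**Figure D1:**
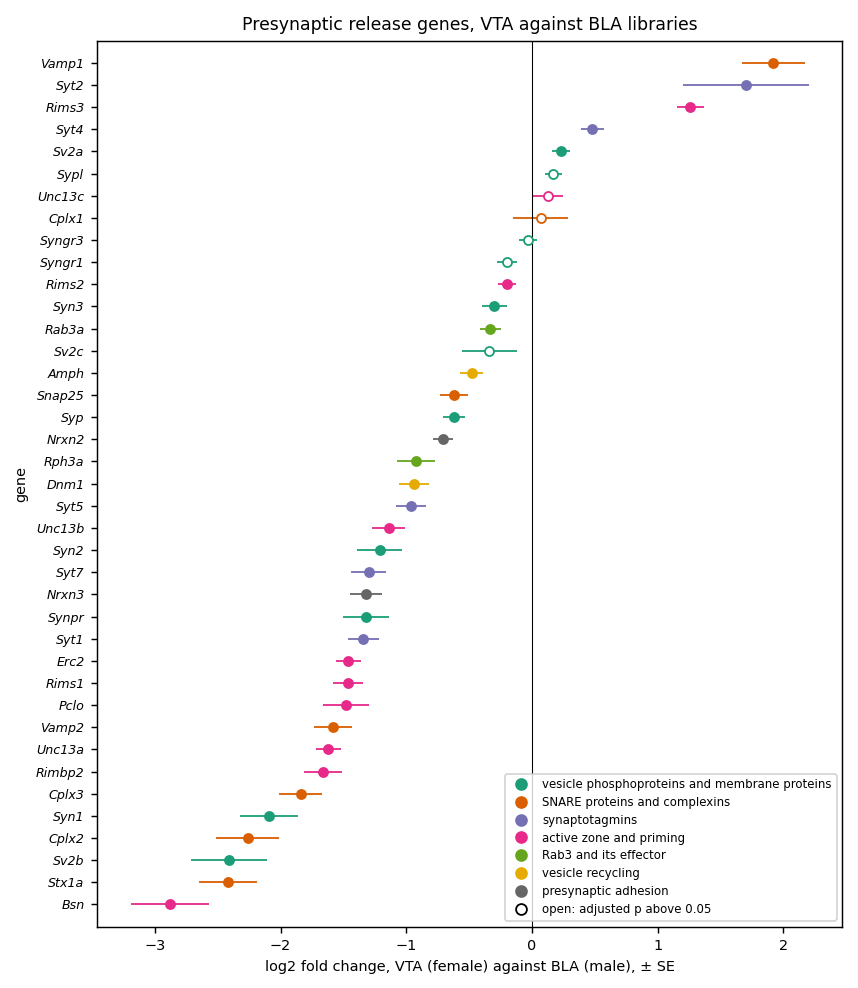
Log2 fold change of each of the 39 members, VTA relative to BLA, with its standard error (bars) from edgeR over 12 libraries, ordered by value and coloured by role, with open points for members that did not pass the test. Most points lie below 0, from -2.88 for Bsn, and Vamp1, Syt2 and Rims3 lie above 1.

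The SNARE proteins and complexins held the widest span, from -2.42 to 1.92, with 5 of 7 lower and 1 higher. Vamp1 (chr6:125215551-125245964, mm10), the synaptobrevin prominent in brainstem, spinal cord and motor terminals, lay at 108, 60.1 and 64.5 CPM in isolated BLA libraries 1 to 3 and 84.5, 62.5 and 68.5 CPM in group-housed BLA libraries. In VTA it lay at 488, 252 and 253 CPM and 228, 173 and 319.9 CPM in the same order. Every VTA library lay above every BLA library, and edgeR gave a log2 fold change of 1.92 (SE 0.25, adjusted p = 0.000163). Its paralog Vamp2, the main synaptobrevin of forebrain terminals, went the other way, at 214 to 366 CPM in BLA and 74.00 to 141 CPM in VTA, a log2 fold change of -1.58 (SE 0.15, adjusted p = 5.95e-06). Stx1a (chr5:135023482-135051100), the syntaxin of the plasma membrane, lay at 118, 198 and 232 CPM in isolated and 183, 202 and 249.8 CPM in group-housed BLA. In VTA it lay at 33.95, 35.5 and 71.1 CPM in isolated and 30.1, 30.1 and 26.8 CPM in group-housed libraries. The lowest BLA value stood above the highest VTA value, isolated library 3, and the log2 fold change was -2.42 (SE 0.23, adjusted p = 2.2e-05). Snap25, the third SNARE, was the highest member per kilobase of exon in both regions, at 318 CPM per kb in BLA and 211 CPM per kb in VTA. Its levels were 1725, 2119.6 and 2247 CPM in isolated and 2059.8, 2657 and 2159 CPM in group-housed BLA, then 1917, 1391 and 1738 CPM and 1056, 1082 and 1396 CPM in VTA. The regions overlapped, since isolated VTA libraries 1 and 3 lay above the lowest BLA library, and the log2 fold change was -0.62 (SE 0.11, adjusted p = 0.000236).

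Complexins differed by member. Cplx2 lay at 943, 908 and 1179.6 CPM in isolated and 1057, 1163 and 889 CPM in group-housed BLA. In VTA it lay at 269.9, 135 and 401 CPM and 152, 143 and 217 CPM. No VTA library reached the BLA range, and the log2 fold change was -2.26 (SE 0.25, adjusted p = 4.8e-05). Cplx3, a complexin of retinal ribbon synapses and some cortical neurons, was scarce, at 5.45, 9.09 and 7.14 CPM and 7.40, 5.93 and 7.75 CPM in BLA and 2.08, 2.71 and 3.20 CPM and 1.30, 1.89 and 1.32 CPM in VTA. The ranges were separate, with a log2 fold change of -1.84 (SE 0.17, adjusted p = 5.67e-07). Cplx1 did not pass the test (log2 fold change 0.07, SE 0.22, adjusted p = 0.835), and its VTA libraries, 161 to 397 CPM, spanned the whole BLA range of 219.5 to 285 CPM.

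Active zone and priming genes were lower in VTA for 8 of 10 members, with a median of -1.46. Bsn (chr9:108096022-108190384), the giant scaffold Bassoon, showed the largest difference of all members. It lay at 460.0, 557 and 834 CPM in isolated and 462, 776 and 535 CPM in group-housed BLA, and at 89.9, 69.6 and 204 CPM and 47.2, 53.04 and 67.1 CPM in VTA. The VTA value of isolated library 3 stood well above the other 5 but below every BLA library, and the log2 fold change was -2.88 (SE 0.31, adjusted p = 6.06e-05). Its relative Pclo, Piccolo, differed less (-1.48), as did Rims1 and Erc2 (each -1.46), Rimbp2, the RIM-binding protein (-1.66), and the Munc13 priming factors Unc13a (-1.62) and Unc13b (-1.14). All of these had separate ranges in the 2 regions. Rims2 was lower by a small margin (-0.20, SE 0.07, adjusted p = 0.0244) with overlapping ranges. Rims3, a short RIM that lacks the Rab3-binding zinc finger, was the exception, at 115, 110.3 and 113 CPM and 127, 85.9 and 125 CPM in BLA. Its VTA libraries lay at 298, 297 and 207 CPM and 286, 285 and 249 CPM. All 6 were above the BLA range, with a log2 fold change of 1.26 (SE 0.11, adjusted p = 5.21e-07). Unc13c did not pass (0.13, SE 0.12, adjusted p = 0.41).

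Among vesicle proteins 6 of 11 were lower in VTA, 1 higher and 4 not called. Sv2b (chr7:75114894-75309262), an SV2 glycoprotein of many glutamatergic terminals, lay at 506, 945 and 964 CPM in isolated and 768, 944 and 995 CPM in group-housed BLA. It lay at 144, 128 and 378 CPM and 109, 118 and 129 CPM in VTA. The ranges were separate, with isolated VTA library 3 the highest of its region, and the log2 fold change was -2.41 (SE 0.30, adjusted p = 0.000157). Sv2a, the SV2 form found at most synapses, lay at 444, 469.6 and 467 CPM and 482, 405 and 493 CPM in BLA and at 615, 539 and 510.5 CPM and 509, 499.9 and 569 CPM in VTA. Every VTA library was above every BLA library by a narrow margin, with a log2 fold change of 0.23 (SE 0.07, adjusted p = 0.0159). Sv2c did not pass (-0.34, SE 0.22, adjusted p = 0.239). Syn1 (chrX:20860511-20921004), a synapsin that tethers vesicles to the cytoskeleton, lay at 116, 128 and 188 CPM and 135, 234 and 120.3 CPM in BLA and at 39.8, 38.01 and 67.01 CPM and 24.3, 26.4 and 29.1 CPM in VTA. Its ranges were separate and its log2 fold change was -2.09 (SE 0.23, adjusted p = 4.28e-05). Syn2 (-1.21), Synpr, or synaptoporin (-1.32), Syp, or synaptophysin (-0.62), and Syn3 (-0.30) were also lower. Syn3 shares 1733 exon bases with Timp3 on the opposite strand, so reads over those bases may distort its count. Sypl, Syngr1 and Syngr3 did not pass, with log2 fold changes of 0.17, -0.20 and -0.03.

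The calcium sensors split. Syt1, the fast sensor of most forebrain synapses, was second per kilobase in BLA at 209.7 CPM per kb. Its levels were 1273, 1785 and 1901 CPM in isolated and 1672, 2104 and 1754 CPM in group-housed BLA, and 606, 691 and 919 CPM and 569, 653 and 712 CPM in VTA. No VTA library reached the BLA range, and the log2 fold change was -1.34 (SE 0.12, adjusted p = 9.15e-07). Syt7 (-1.30) and Syt5 (-0.96) were lower too. Syt2, the fast sensor of hindbrain and many inhibitory terminals, lay at 91.6, 33.9 and 27.3 CPM and 54.05, 28.9 and 16.7 CPM in BLA and at 237, 84.7 and 128 CPM and 105, 56.00 and 197 CPM in VTA. Its ranges overlapped, since isolated BLA library 1 lay above 2 VTA libraries, and edgeR gave 1.70 (SE 0.50, adjusted p = 0.0224). Syt4, a form with impaired calcium binding, lay at 149, 216 and 168 CPM and 158, 165 and 208 CPM in BLA and at 261, 273 and 271 CPM and 238, 238 and 212 CPM in VTA. Isolated BLA library 2 lay above group-housed VTA library 3 and the ranges overlapped only there, and the log2 fold change was 0.48 (SE 0.09, adjusted p = 0.000506).

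The remaining 6 members were all lower in VTA. Rab3a, the vesicle GTPase, was second per kilobase in VTA at 139 CPM per kb, against 174 CPM per kb in BLA. Its levels were 315, 384 and 423 CPM and 395, 410.0 and 402 CPM in BLA, and 372, 307 and 338 CPM and 271, 271 and 299 CPM in VTA. The ranges overlapped, and the log2 fold change was -0.33 (SE 0.08, adjusted p = 0.00219). Its effector rabphilin, Rph3a, differed by -0.92 (SE 0.15), Dnm1 by -0.94 (SE 0.12), Amph by -0.48 (SE 0.09), and the neurexins Nrxn2 and Nrxn3 by -0.71 (SE 0.08) and -1.32 (SE 0.13). At the low end per kilobase stood Syn3 in BLA and Cplx3 in VTA, at 1.64 and 0.705 CPM per kb. Of the 33 calls, 5 were lost under at least 1 of 19 alternative settings: Syt2 was called in 13, Rims2 in 13, Syn3 in 16, Sv2a in 17 and Rab3a in 18. Syt2 lost its call without isolated BLA library 2 or 3, isolated VTA library 1 or group-housed VTA library 3. Rims2 lost it without isolated BLA library 2, group-housed BLA library 1 or 2, isolated VTA library 2 or group-housed VTA library 3, and Syn3 without group-housed BLA library 2 or group-housed VTA library 2. All 5 lost it without the BLA libraries rich in ribosomal RNA reads, and Syt2 and Sv2a also without isolated VTA libraries 1 and 3.

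The share that a member takes among the listed members of its own family, computed per kilobase, does not depend on how libraries are scaled. The denominators hold listed members only, so paralogs outside the list, such as Rims4, Syt11 and Cplx4, are left out and the values are not shares of whole families. These shares were chosen after the levels of the members were seen and are given without a test. Vamp1 made up 6.02 to 15.9% of Vamp1 and Vamp2 together in BLA and 40.2 to 64.6% in VTA. Cplx1 made up 33.4 to 39.7% of Cplx1 to Cplx3 in BLA and 65.4 to 78.8% in VTA, although its own level did not pass the test. Cplx2 was thus the larger share in every BLA library and Cplx1 in every VTA library.

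Rims3 made up 10.96 to 18.9% of Rims1 to Rims3 in BLA and 35.7 to 51.1% in VTA, and Unc13c 34.5 to 47.5% of Unc13a to Unc13c in BLA and 58.5 to 73.4% in VTA. Sv2b made up 34.1 to 53.3% of Sv2a to Sv2c in BLA and 9.97 to 26.7% in VTA, the highest VTA share being that of isolated library 3. Of the scaffold pair, Bsn held 58.1 to 64.5% in BLA and 28.6 to 53.8% in VTA, again highest in isolated library 3. Among Syt1, Syt2, Syt4, Syt5 and Syt7, Syt2 took a small share in both regions, at 0.589 to 4.28% and 3.83 to 14.3%, with overlapping ranges. Syngr1 and Syngr3, the synaptogyrins, kept nearly equal shares, Syngr1 holding 54.7 to 58.1% in BLA and 51.9 to 54.7% in VTA.

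**Figure D2:**
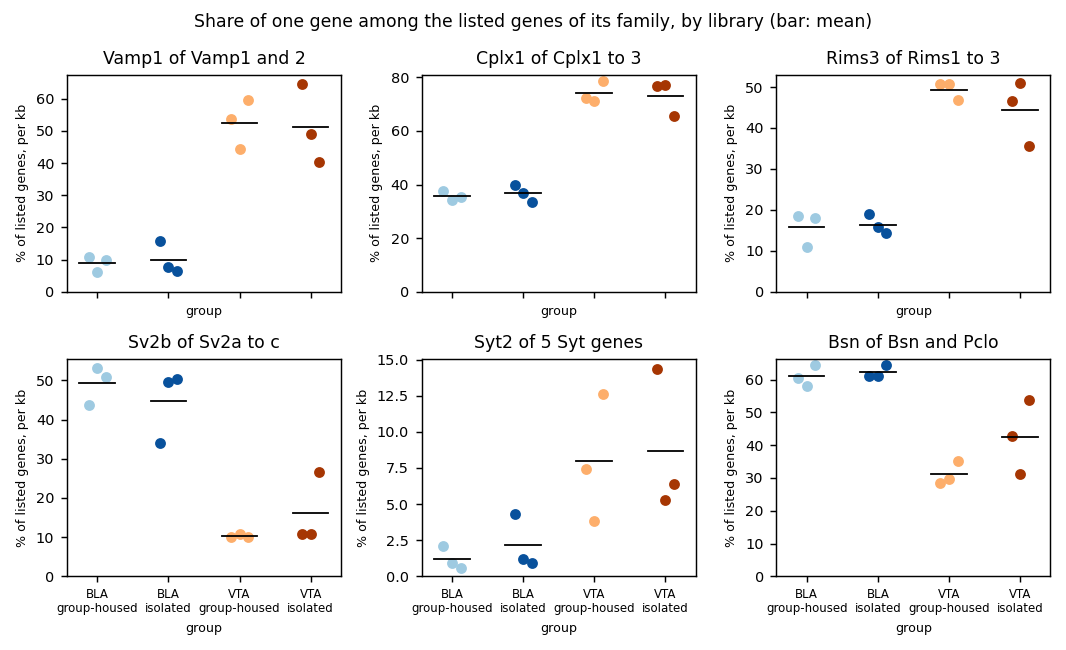
Share of 1 member among the listed members of its gene family per kilobase of exon (percent), for 6 families, one point per library in the 4 groups, with lines for group means. Vamp1, Cplx1 and Rims3 take larger shares in all 6 VTA libraries than in any BLA library, and Sv2b smaller ones.

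The sequences upstream of 4 members with opposite regional differences are shown so that the promoters of Vamp1 and Rims3, higher in VTA, can be set beside those of Syn1 and Stx1a, lower in VTA. They are the 250 bases before the start annotated in RefSeq (GRCm38.p6), 5′ to 3′ on the gene's strand, at chr6:125215331-125215580 (plus strand), chr4:120854549-120854798 (plus), chrX:20920919-20921168 (minus) and chr5:135023232-135023481 (plus). The gene spans given above are those of GENCODE M21, whose starts can differ. The windows of Vamp1 and Syn1 reach into the spans given for these genes. Capitals mark a GC box (GGGCGG on either strand), and in Syn1 a cyclic AMP response element (TGACGTCA).
Vamp1: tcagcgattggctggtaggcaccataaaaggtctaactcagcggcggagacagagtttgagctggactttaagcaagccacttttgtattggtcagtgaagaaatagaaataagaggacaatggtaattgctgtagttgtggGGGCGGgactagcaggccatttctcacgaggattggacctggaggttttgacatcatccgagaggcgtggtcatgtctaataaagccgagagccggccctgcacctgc
Rims3: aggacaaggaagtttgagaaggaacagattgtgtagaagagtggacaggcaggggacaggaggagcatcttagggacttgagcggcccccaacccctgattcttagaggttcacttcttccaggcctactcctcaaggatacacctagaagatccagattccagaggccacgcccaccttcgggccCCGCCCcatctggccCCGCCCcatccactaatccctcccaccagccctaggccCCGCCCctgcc
Syn1: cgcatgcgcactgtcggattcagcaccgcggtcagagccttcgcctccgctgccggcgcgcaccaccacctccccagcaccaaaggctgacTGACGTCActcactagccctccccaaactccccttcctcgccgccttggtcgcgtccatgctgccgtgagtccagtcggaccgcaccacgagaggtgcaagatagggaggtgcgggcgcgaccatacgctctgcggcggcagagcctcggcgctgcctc
Stx1a: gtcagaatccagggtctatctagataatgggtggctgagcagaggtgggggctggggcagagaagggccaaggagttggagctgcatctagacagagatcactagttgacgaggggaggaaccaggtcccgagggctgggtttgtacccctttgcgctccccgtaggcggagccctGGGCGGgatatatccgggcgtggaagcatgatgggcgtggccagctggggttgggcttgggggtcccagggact

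A promoter window was found for 30 of the 39 members. Both strands were searched. A GC box lay in 20 of these 30 members, against 35.4% of all genes with a window, and was present both in members higher in VTA, such as Vamp1 and Rims3, and in members lower in VTA, such as Stx1a and Unc13a. The response element was present in Syn1 alone among members, against 1.77% of all genes. A TATA box (TATAAA) lay in 1 member, Sv2b, against 14.3% of genes. Some genes have more than 1 window. For 37 of 43 member windows, the end of the RefSeq sequence was found in a GENCODE transcript of the gene. It was not found for 1 window each of Rims1, Syt2, Sv2b, Rab3a, Unc13c and Cplx2, and these windows were kept. Counted by window, a GC box lay in 22 of 43 member windows, against 32.7% of all 32851 windows. The response element lay in 1 of the 43, against 1.55%, and the letters TATAAA on either strand in 2, against 12.4%. Member windows had a median GC content of 60.0%, against 52.4% over all windows. These matches describe letters and were not tied to any measured difference.

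Isolation was compared with group housing within VTA. No member passed the test with edgeR (1 of 24082 genes passed, 0.00415%), but the members leaned one way: 35 of 39 had a higher fitted level in isolated libraries, with a median log2 fold change of 0.22, against 49.8% of genes above 0 and a median of 0.00 over all genes. At an unadjusted p under 0.05, 10 members were higher and 1, Unc13b, was lower (-0.27, SE 0.11). Of all 24082 genes, 2102 were higher and 2306 lower at that threshold, or 18.3% in either direction. With DESeq2, 3 members passed (Dnm1, Syn1 and Syn2) among 450 genes, and with limma voom none. The 6 members with the smallest p were Dnm1, Syn1, Vamp2, Snap25, Amph and Cplx3.

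Dnm1 (chr2:32308471-32353338), the neuronal dynamin that pinches off vesicles, lay at 551, 415 and 567 CPM in isolated and 307, 315 and 363 CPM in group-housed VTA. All isolated libraries were above all group-housed ones, at 511 ± 83.7 CPM against 328 ± 30.1 CPM (SD, n = 3 each). Its log2 fold change by edgeR was 0.58 (SE 0.12, adjusted p = 0.236). Syn1 lay at 39.8, 38.01 and 67.01 CPM in isolated and 24.3, 26.4 and 29.1 CPM in group-housed libraries. The groups did not overlap, isolated library 3 stood highest, and the log2 fold change was 0.80 (SE 0.22, adjusted p = 0.236). Vamp2 lay at 100.3, 98.03 and 141 CPM against 74.00, 81.4 and 81.3 CPM, separate groups with isolated library 3 again highest, and a log2 fold change of 0.46 (SE 0.13, adjusted p = 0.236).

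Snap25 lay at 1917, 1391 and 1738 CPM against 1056, 1082 and 1396 CPM. Here isolated library 2 lay just below the highest group-housed library, so the groups overlapped, with a log2 fold change of 0.46 (SE 0.14, adjusted p = 0.236). Amph, the amphiphysin that recruits dynamin, lay at 201, 195 and 242 CPM against 164, 173 and 165 CPM. Its groups were separate, with a log2 fold change of 0.29 (SE 0.09, adjusted p = 0.236). Cplx3 lay at 2.08, 2.71 and 3.20 CPM against 1.30, 1.89 and 1.32 CPM, separate but at very low levels, with a log2 fold change of 0.78 (SE 0.26, adjusted p = 0.236).

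By role, all 7 SNARE proteins and complexins had positive log2 fold changes, from 0.37 to 0.78, as did 10 of 11 vesicle proteins, all 5 synaptotagmins (0.14 to 0.43) and both recycling genes. Active zone genes ran from -0.27 for Unc13b to 1.06 for Bsn, with 8 of 10 positive. Nrxn2 and Nrxn3 stood near 0 (0.01 and -0.10). In 13 members every isolated library was above every group-housed one (17.4% of all genes did this). In none was every isolated library below (11.6% of all genes did this). Scaled over the 6 VTA libraries alone, 13 members were separate and higher and 1 was separate and lower (Unc13b). Of all genes, 12.6% were separate and higher and 26.1% were separate in either direction.

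Markers of some other cells were mostly higher in the isolated VTA libraries, none of them past the test, and their part in the members' values was not tested. Choroid plexus markers were higher in the isolated libraries for 14 of 14 genes, with summed levels of 284, 48.7 and 3559.9 CPM in isolated and 62.9, 57.9 and 42.1 CPM in group-housed libraries 1 to 3, and no marker at 0 in any VTA library. Cortical and amygdalar glutamatergic markers were higher for 14 of 15, at 426, 327 and 1127 CPM and 291, 293 and 272 CPM. Pan-neuronal markers were higher for 18 of 20, at 8246, 7848 and 8233 CPM and 6888, 7126 and 7706 CPM. Oligodendrocyte markers were higher for 11 of 11, at 13895, 10209.5 and 11602 CPM and 7268, 7018 and 11458 CPM. Microglial markers were higher for 10 of 10 (median log2 fold change 0.28) and striatal ones for 11 of 13 (0.56). Other lists lay near 0: midbrain dopamine markers were higher for 9 of 15 (0.07), GABAergic for 7 of 11 (0.06), subcortical glutamatergic for 4 of 8 (0.06) and astrocytic for 7 of 10 (0.04).

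Isolated library 3 was the highest VTA library for 22 of 39 members and isolated library 1 for 9. Isolated library 2 had choroid plexus markers within the group-housed range and cortical markers just above it. It stood apart on other lists. Its GABAergic markers summed to 273 CPM, against 470 to 698 CPM in the other VTA libraries. Its subcortical glutamatergic markers summed to 616 CPM, against 353 to 580 CPM in the others. Leaving out isolated library 3 brought the members' median to 0.18, with 29 of 39 positive, and leaving out libraries 1 and 3 brought it to 0.08, with 29 of 39 positive. In that last fit, with a single isolated library, the log2 fold change was 0.31 for Dnm1, 0.49 for Syn1, 0.29 for Vamp2, 0.22 for Snap25, 0.20 for Amph and 0.83 for Cplx3, and no member passed. Without isolated library 3 alone, Syn1 stood at 0.50 and Vamp2 at 0.28, and with pan-neuronal scaling Amph stood at 0.18. Leaving out isolated library 2 gave 2 calls (Dnm1 at 0.70 and Syn2 at 0.99) and 1200 calls over all genes. Scaling to pan-neuronal markers gave a median of 0.11 for the members and -0.11 for all genes.

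**Figure D3:**
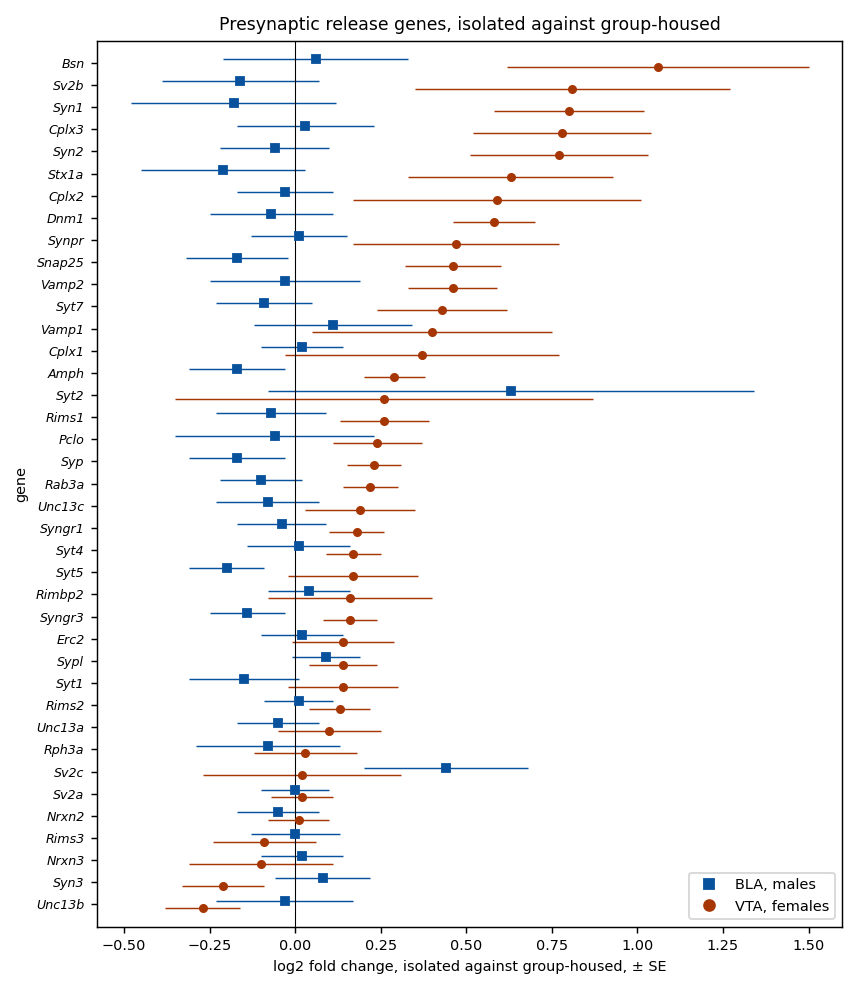
Log2 fold change of each of the 39 members, isolated relative to group-housed, with its standard error (bars), in BLA and in VTA from edgeR over 6 libraries each. VTA values lie mostly above 0 and BLA values on both sides of 0, and no member passes the test in either region.

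**Figure D4:**
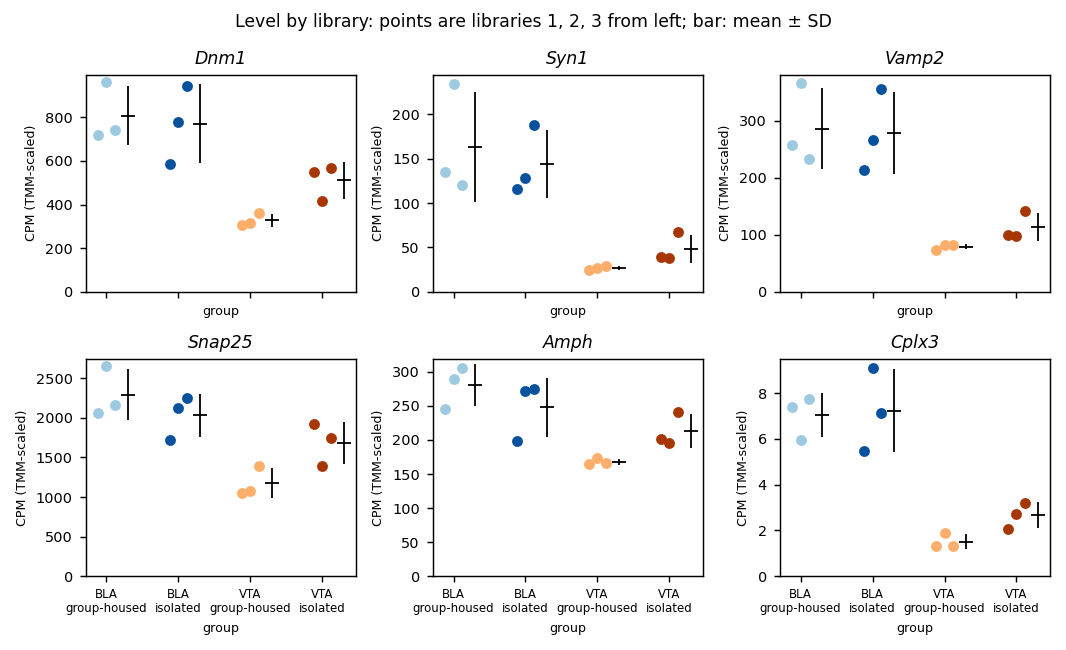
Levels (CPM, linear axis from 0) of the 6 members with the smallest p for isolation in VTA, one point per library in the 4 groups, with bars for mean ± SD (n = 3). Dnm1, Syn1, Vamp2, Amph and Cplx3 are separate between the VTA groups and Snap25 is not, while the BLA groups overlap in all 6 panels.

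Within BLA the same contrast gave no lean of that kind. No member passed with edgeR (0 of 22110 genes; 0%), none had an unadjusted p under 0.05, against 1.99% of all genes, and no member had separate groups, against 7.11% of genes. Over all genes DESeq2 called 5 and called no member. The members' median was -0.04, with 16 of 39 positive, against 50.8% of genes and a median of 0.00 over all genes. That sign was not stable: the median turned to 0.04 without isolated library 1 and to 0.02 with limma voom. Scaling to pan-neuronal markers moved the members' median to 0.05 and that of all genes to 0.11.

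Syt5, a synaptotagmin with the smallest p here, lay at 124, 154 and 162 CPM in isolated and 158, 179.7 and 168 CPM in group-housed BLA. The groups overlapped, and the log2 fold change by edgeR was -0.20 (SE 0.11, adjusted p = 1). Sv2c lay at 204, 124 and 128 CPM against 140.4, 110.2 and 86.3 CPM, its highest value in isolated library 1, with a log2 fold change of 0.44 (SE 0.24, adjusted p = 1). Syngr3 lay at 153, 183 and 176 CPM against 189, 171 and 206 CPM (log2 fold change -0.14, SE 0.11, adjusted p = 1).

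Amph lay at 198, 272 and 274 CPM against 246, 289 and 306 CPM, with isolated library 1 lowest (log2 fold change -0.17, SE 0.14, adjusted p = 1). Syp lay at 457, 591 and 683 CPM against 633, 633 and 685 CPM, again lowest in isolated library 1 (-0.17, SE 0.14, adjusted p = 1). Snap25 lay at 1725, 2119.6 and 2247 CPM against 2059.8, 2657 and 2159 CPM, lowest in the same library (-0.17, SE 0.15, adjusted p = 1). All of these pairs of groups overlapped. Without isolated library 1 the log2 fold changes of Syt5, Sv2c, Syngr3, Amph, Syp and Snap25 were -0.09, 0.16, -0.07, -0.03, -0.03 and -0.07. With the 3 libraries high in ribosomal RNA reads left out they were -0.28, 0.93, -0.30, -0.38, -0.39 and -0.17.

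Isolated library 1 was the lowest BLA library for 26 of 39 members. In that library striatal projection neuron markers summed to 3314 CPM, against 907 to 2235 CPM in the other 5, and cortical and amygdalar markers to 1941 CPM, against 2819 to 3691 CPM. Striatal markers were higher in the isolated group for 13 of 13 genes and cortical ones lower for 14 of 15, none past the test. What part these shifts play in the members' values was not tested. Bsn and Pclo were highest in 2 of the 3 libraries rich in ribosomal RNA reads: Bsn in isolated library 3 (834 CPM) and group-housed library 2 (776 CPM), and Pclo in group-housed library 2 (788 CPM) and isolated library 3 (651 CPM). In the other, group-housed library 1, they lay near the low end, at 462 and 428 CPM.

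**Figure D5:**
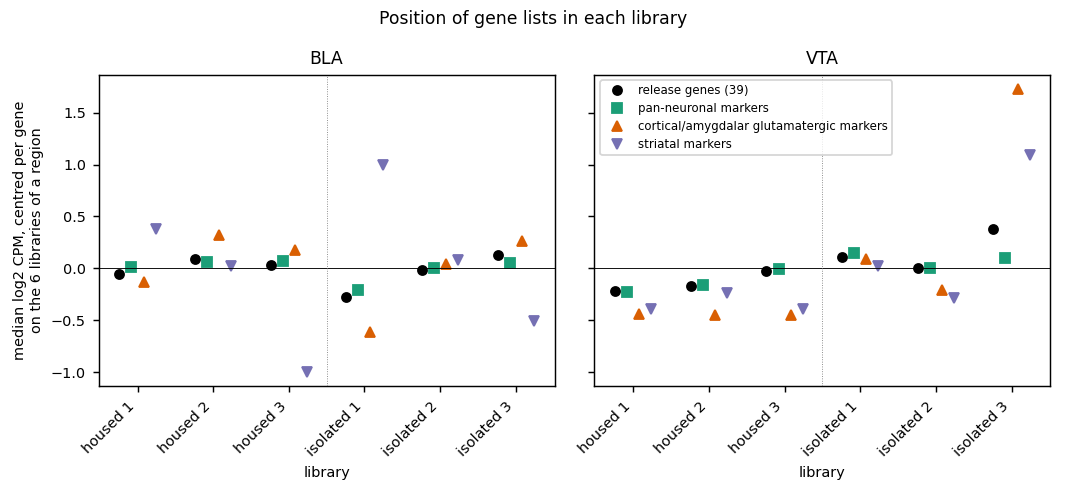
Median log2 CPM, centred per gene on the 6 libraries of a region, for the 39 members and for pan-neuronal, cortical and amygdalar glutamatergic, and striatal markers in each library. The members' median is lowest in isolated BLA library 1 (-0.28) and highest in isolated VTA library 3 (0.38).

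The difference of the responses, VTA minus BLA, was tested as a contrast over all 12 libraries. No member passed with edgeR (0 of 25009 genes; 0%), nor with DESeq2, which called 127 genes. At an unadjusted p under 0.05 there were 9 members, all positive, against 14.9% of all genes in either direction. The difference was above 0 for 33 of 39 members, with a median of 0.36, against 55.3% of genes above 0 and a median of 0.06. The 6 smallest p belonged to Snap25 (0.69, SE 0.22, adjusted p = 0.303), Amph (0.52, SE 0.18, adjusted p = 0.303), Dnm1 (0.71, SE 0.24, adjusted p = 0.303), Syp (0.46, SE 0.17, adjusted p = 0.304), Syngr3 (0.36, SE 0.14, adjusted p = 0.304) and Rab3a (0.38, SE 0.15, adjusted p = 0.307). Dnm1 lay at 584, 779 and 946 CPM in isolated and 717, 963 and 743 CPM in group-housed BLA, which overlapped. In VTA Syp lay at 441, 416 and 462 CPM in isolated and 342, 353 and 389 CPM in group-housed libraries, and Syngr3 at 189, 195 and 184 CPM and 149.7, 169.5 and 169.9 CPM. Since the test of the difference called no member, an unlike response of the 2 regions is not shown for any member, and sex and region cannot be told apart in it.

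A wider list of 108 other genes of the release cycle, of which 107 were tested, differed between regions in both directions. Of these, 57 were called lower in VTA and 18 higher, against 23.7% and 24.1% of all genes, with a median of -0.26. Those with the smallest p among the lower were Stxbp5l, or tomosyn-2, a brake on SNARE assembly (log2 fold change -1.02, SE 0.08, adjusted p = 9.56e-08), the vesicular amino acid transporter Slc6a17 (-0.98, SE 0.08, adjusted p = 3.42e-07), the endocytic adaptor Epn1 (-0.89, SE 0.08, adjusted p = 3.7e-07) and liprin Ppfia3 (-0.99, SE 0.09, adjusted p = 4.71e-07). Among the higher were the calcium sensor Syt9 (1.19, SE 0.10, adjusted p = 3.98e-07), gamma-synuclein Sncg (4.23, SE 0.30, adjusted p = 2.68e-06), the Munc18 paralog Stxbp3 (0.73, SE 0.09, adjusted p = 1.03e-05) and Vamp3, the broadly expressed cellubrevin (0.51, SE 0.07, adjusted p = 1.86e-05). Sncg lay at 2.55, 1.47 and 0.911 CPM and 1.57, 3.996 and 1.63 CPM in BLA, and at 35.5, 36.3 and 34.2 CPM and 29.00, 31.8 and 49.9 CPM in VTA, with no overlap.

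For isolation in VTA, 78 of the 107 were above 0, against 49.8% of all genes. The median was 0.15, and none passed. The smallest p were those of Epn1 (0.45, SE 0.10, adjusted p = 0.236) and the clathrin adaptor subunit Ap2s1 (0.31, SE 0.08, adjusted p = 0.236). Epn1 lay at 166, 135 and 172 CPM in isolated and 101, 111 and 119.6 CPM in group-housed libraries, which did not overlap. For isolation in BLA, 80 of the 107 were below 0 and 27 above, where 50.8% of all genes lay above 0. The median was -0.07 and none passed. Snap91, a clathrin assembly protein (-0.20, SE 0.12, adjusted p = 1), and Apba1, or Mint1 (-0.17, SE 0.10, adjusted p = 1), had the smallest p. In the difference of responses 90 of the 107 were above 0, against 55.3% of all genes. The median was 0.27 and none passed, with the smallest p in Epn1 (0.57, SE 0.15, adjusted p = 0.303) and Eps15, its endocytic partner (0.49, SE 0.15, adjusted p = 0.303).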

How the data were processed

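RNA was extracted with Trizol from brain punches, and stranded libraries were made after depletion of ribosomal RNA, per the labels' protocols. The deposited values are whole-number read counts per gene, made with cutadapt, TopHat2 and HTSeq on mm10, per the submitters' processing notes. Their versions, gene annotation and strand setting were not given in the sources used here. Counts of members that share exon bases with an opposite-strand gene (14 of 39, 6 of them with a protein-coding gene) may therefore be too high or too low. The per-sample tables were used; the series table differed from them at 2 rows, neither a member.

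Genes were filtered with filterByExpr (minimum count 10, minimum total 15) and fitted with edgeR 4.0.16 under R 4.3.3 (TMM, quasi-likelihood, robust), with Benjamini-Hochberg adjustment over all genes and a threshold of 0.05. Within-region fits used 6 libraries and region and difference fits used 12. Standard errors (SE) were derived from each test, as the absolute log2 fold change divided by the square root of the F statistic. Levels are CPM with TMM factors over 12 libraries; per-kilobase levels use union exon lengths of GENCODE M21. The fits were run on simulated counts with planted changes and the same dispersion for every gene. This does not show how they behave with libraries that stand apart. Alternatives were DESeq2 1.42.0, limma 3.58.1 voom, RLE factors, no filter, a replicate block, other scalings and fits without each library or the libraries that stood apart. Every member is named; library values are given for the 6 smallest p per comparison of housing, the 6 largest regional differences per direction among calls, and the 2 highest per kilobase; the pathway list gives up to 4 genes per direction, or 2 by p where none passes. Promoter windows came from RefSeq. The members and lists were chosen with earlier results of these data known. Between replicates of a group, chi-square divided by its degrees of freedom was at least 20.8. Figures used matplotlib 3.10.9.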

Additional observations from a re-analysis of the deposited data

How the results depend on the processing

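In the contrast of VTA with BLA, 28 to 35 of 39 members were called over 19 alternatives, and the members' median went to -0.76 without the BLA libraries rich in ribosomal RNA reads, against -0.94; the cause was not tested. For isolation in VTA, DESeq2 called 3 members against 0 by edgeR, and leaving out 1 library gave 0 to 2. Over all genes the isolation contrast in VTA gave 1 call by edgeR, 450 by DESeq2, 17 without the filter, 2 by limma voom, 0 with a replicate block and 1200 without isolated library 2; in BLA it gave 0, then 5 by DESeq2, 8 without the filter, 4 without isolated library 2 and 1 without the 3 libraries high in such reads. The difference of responses gave 0, then 127 by DESeq2, 1 without the filter, 1 with the block and 487 without isolated VTA library 2 (1 without library 1). Leaving out 1 library moved the members' median between -0.17 and 0.04 in BLA, 0.18 and 0.26 in VTA, -1.02 and -0.86 between regions, and 0.23 and 0.39 for the difference. Deviations of same-numbered libraries correlated at 0.37, -0.11 and -0.01 in BLA and -0.10, 0.02 and -0.05 in VTA. Those of different-numbered libraries correlated at -0.27 to 0.29 in BLA and -0.17 to 0.21 in VTA. These values do not settle whether replicate numbers pair the libraries. With the replicate block, 0 members were called for isolation in BLA, 0 in VTA, 34 between regions and 0 for the difference, with medians of -0.04, 0.22, -0.94 and 0.36. The lowest count of any member in any library was 88, and 3 libraries a group limit the precision of every comparison of housing.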
